A study of Homo sapiens with 24 samples.

Results

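The genes described here repair DNA by homologous recombination or act in the Fanconi anaemia pathway. The list holds 37 genes, and a gene was taken as measured where its symbol stood in the probe annotation of the array. This gave 33 genes with 54 probes. Of these, 29 rose above the background on enough arrays to be tested, among 10048 tested genes in all. BRCA2, RBBP8, FANCA and FANCD2 had no probe in the table used and were not analysed here. RAD50, BRIP1, RAD52 and FANCM each had a probe that was above the background on 0 of 24 arrays, so no change is given for them.

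Homologous recombination mends a broken chromosome by trimming the broken ends, pairing them with the sister chromatid and copying its sequence. BRCA1, BARD1, PALB2 and BRCA2 prepare the trimmed end for strand exchange, RAD51B, RAD51C, RAD51D, XRCC2 and XRCC3 assist it, and helicases and nucleases resolve the joined molecules afterwards. The Fanconi anaemia core complex attaches ubiquitin to FANCI and FANCD2 where strands are crosslinked, which calls in nucleases and the recombination proteins. Trabectedin binds the minor groove of DNA, and cells lacking homologous recombination are known to be more sensitive to it.

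The study treated U2932 and OCI-Ly7, established human lines of diffuse large B cell lymphoma (U2932 of the activated B cell type and OCI-Ly7 of the germinal centre type), with trabectedin or with its solvent DMSO. RNA was taken after 8 h and after 24 h, which gives 8 groups of 3 Illumina bead arrays: each line, DMSO or trabectedin, at each time. No dose is given in the labels, nor whether the 3 arrays of a group came from separate cultures, so p-values measure only the spread between these arrays, which may be technical. All U2932 arrays shared 1 chip, the OCI-Ly7 arrays of DMSO and of 8 h trabectedin another, and the 3 OCI-Ly7 arrays of 24 h trabectedin lay on a chip of their own.

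Consequently chip and treatment cannot be told apart in the OCI-Ly7 effect at 24 h, nor line and chip in any comparison of the lines. The mean raw intensity of an array was 535 to 556 in U2932 with DMSO at 24 h and 339.9 to 378 with trabectedin, and in OCI-Ly7 it was 183 to 264 with trabectedin at 24 h against 270.1 to 422 with DMSO. The OCI-Ly7 DMSO array of replicate 3 at 24 h stood apart: it was the dimmest of its group, at 270.1, and it correlated with its group at only 0.972 at the lowest. Of 7 B cell markers with a probe, 6 were detected on all 24 arrays and PAX5 on 0. The 7 T and NK cell markers were detected on 0 arrays, and of 6 myeloid markers only MPO was detected, on 3 trabectedin arrays.

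Trabectedin lowered most of the tested genes in U2932 and, at 8 h, in OCI-Ly7, while a smaller set led by XRCC3 and TOP3A rose. BRCA1, RAD51B, RAD54B, NBN, BLM and FANCC were called lower in every one of the 4 effects (trabectedin against DMSO in each line at each time), and 10 others in exactly 3. PALB2, XRCC3, EXO1, TOP3A and EME1 were called higher in 3 effects and lower in none. FANCB was too by its brighter probe, but its other probe was called lower in the same effects, and a second TOP3A probe was not called higher. A second EXO1 probe was called higher in OCI-Ly7 at 8 h as well. Only MUS81 and FANCE were called in both directions, and RMI1 in no effect by its brighter probe. A second RMI1 probe was called higher in U2932 at 8 h. A gene was called where limma gave an adjusted p (Benjamini-Hochberg over the 10048 genes) under 0.05. All changes are differences of normalised log2 intensity, and since the arrays were equalised, a change of the RNA per cell or of the number of cells cannot be told apart.

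The counts have to be read against a broad response. In U2932 at 8 h, 8 of 29 genes were called higher and 19 lower, where 37.2% of the 10048 genes were called higher and 39.9% lower. After 24 h the count was 10 higher and 17 lower, against 38.0% and 46.4%. In OCI-Ly7 at 8 h it was 4 higher and 17 lower, against 28.7% and 30.9%, and at 24 h 4 higher and 7 lower, against 22.3% and 23.9%. The last count is close to the shares over the whole array. In either direction, 77.1%, 84.5%, 59.6% and 46.2% of all genes were called in the 4 effects, and for 79.6%, 86.1%, 66.3% and 55.8% the 3 treated and 3 control arrays did not overlap.

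The median change of the 29 genes was -0.52 in U2932 at 8 h, -0.89 at 24 h, -0.48 in OCI-Ly7 at 8 h and 0.06 at 24 h, with -0.01, -0.12, 0.00 and 0.00 over all 10048 genes. Several of these falls end in the background, where a value is only a bound. With such genes at their bound, or at 0 where no bound could be given, the median was -0.18, -0.03, -0.38 and 0.06, in the same order. Over all genes it was 0 in each effect. In U2932 at 8 h none of the 4 such genes had a bound, so these called falls were entered as 0. The test also needed signal on only some arrays, so genes seen in 1 condition alone had to differ. Among the 17 genes detected on all 24 arrays, 8 were called higher and 7 lower in U2932 at 8 h (45.0% and 31.1% of 5360 such genes), and 10 higher and 5 lower at 24 h (46.2% and 39.3%). In OCI-Ly7, 4 of the 17 were higher and 7 lower at 8 h (36.8% and 22.9%), and 4 higher and 0 lower at 24 h (29.2% and 17.8%). A gene that fell into the background with trabectedin is left out of this subset by its own fall, so these counts hold fewer falls by construction.

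Many of the rises depended on how the arrays were scaled. When arrays were scaled to their median instead of quantile normalised, the median of all genes shifted to -0.34 in U2932 at 8 h, -0.73 at 24 h, 0.01 in OCI-Ly7 at 8 h and -0.58 at 24 h. The rises that kept a call under this scaling were XRCC3 and TOP3A in U2932 at 8 h, those and XRCC2 and FANCE at 24 h, and XRCC3 in OCI-Ly7 at 8 h. Of the 10 genes called higher in U2932 at 24 h, 5 were called lower under it: PALB2, RAD54L, MUS81, EME1 and FANCB. Since this scaling moved the bulk of genes down in 3 of the 4 effects, it lowered rises and falls alike there, and that falls kept their calls does not show them to be firmer than rises. RAD51C, called lower in U2932 at 8 h, lost its call (-0.22, adjusted p = 0.0556).

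**Figure D1:**
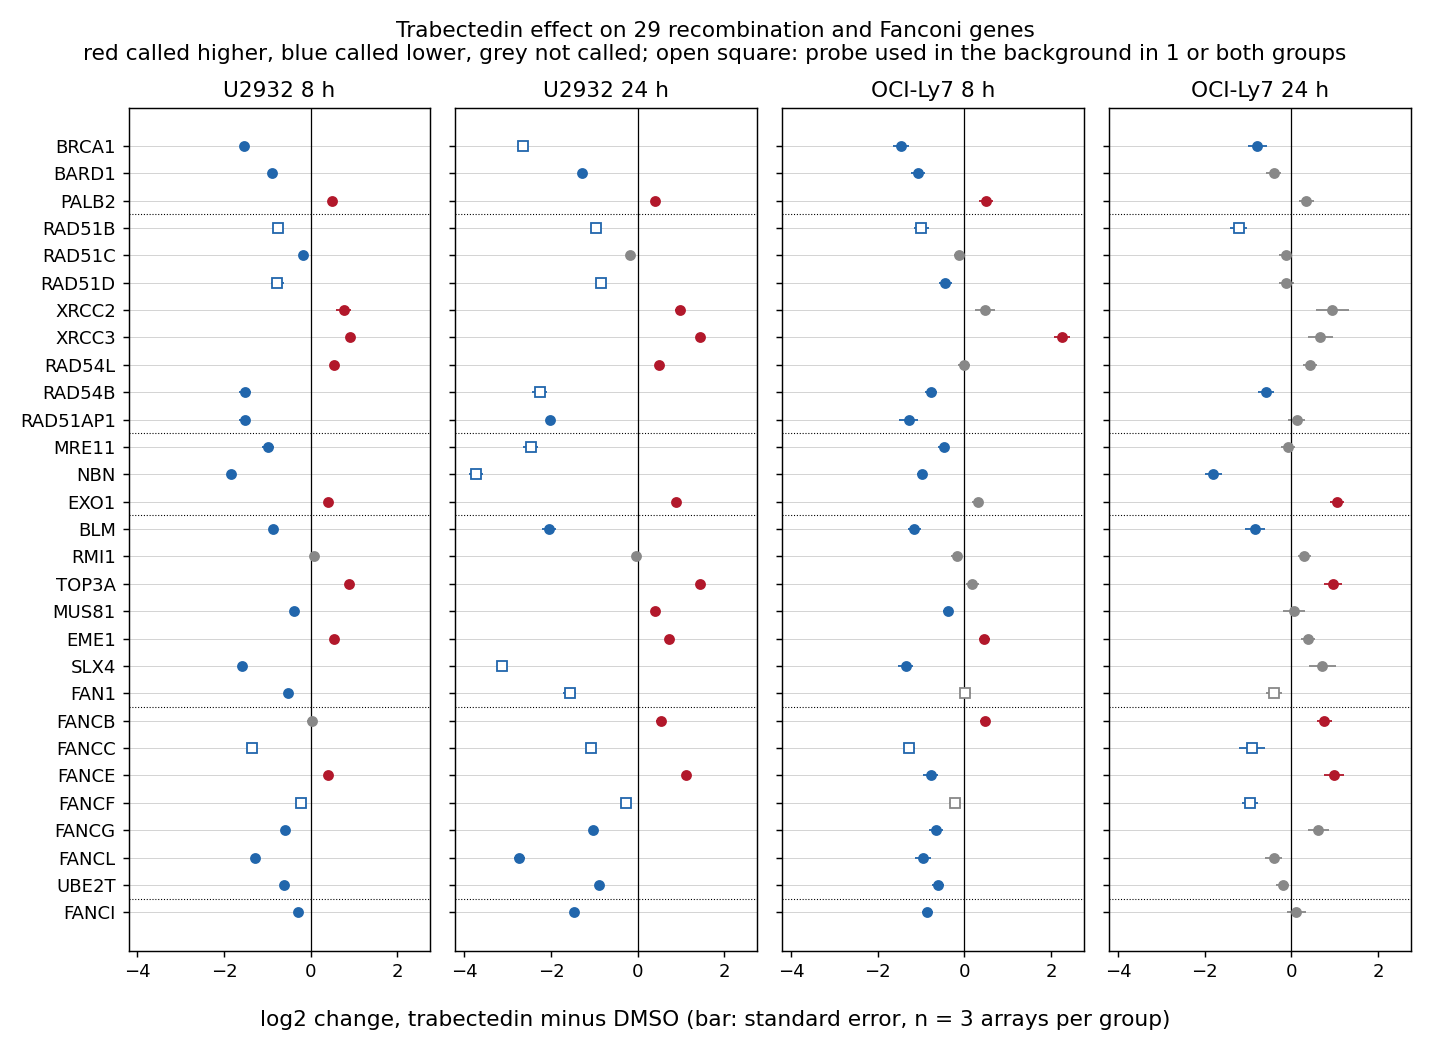
Change in normalised log2 intensity (horizontal axis, trabectedin minus DMSO) of the 29 tested genes, in the order of their roles, with a panel for each line and time. Points are limma estimates with standard errors (n = 3 arrays per group), and open squares mark genes whose probe was in the background on all arrays of 1 or both groups. Blue points (called lower) outnumber red ones (called higher) by 19 to 8 and 17 to 10 in the U2932 panels and by 17 to 4 in OCI-Ly7 at 8 h, and most points are grey (not called) in OCI-Ly7 at 24 h.

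BRCA1, the tumour suppressor that promotes the trimming of broken ends, fell in both lines. In U2932 its normalised log2 intensity was 8.02, 8.21 and 8.20 with DMSO and 6.53, 6.61 and 6.67 with trabectedin at 8 h. At 24 h it was 8.32, 8.45 and 8.32 with DMSO and 5.79, 5.79 and 5.60 with trabectedin. The treated arrays lay below every control array at both times, and at 24 h all 3 were in the background, meaning that under the set limit too many probes of silent genes were as bright. The fall was 1.54 ± 0.08 at 8 h (SE, n = 3 arrays per group, limma adjusted p = 1.88e-07), and at 24 h the level was at least 4.47-fold lower (adjusted p = 1.17e-07).

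In OCI-Ly7, BRCA1 read 8.93, 8.96 and 9.28 with DMSO and 7.71, 7.20 and 7.85 with trabectedin at 8 h, and 9.35, 9.21 and 9.01 against 8.59, 7.95 and 8.65 at 24 h. Groups did not overlap at either time. It fell by 1.47 ± 0.18 at 8 h (limma adjusted p = 6.61e-05) and by 0.79 ± 0.22 at 24 h (adjusted p = 0.0144). A further BRCA1 probe moved alike, by -1.63 and -3.38 in U2932 and -1.83 and -0.73 in OCI-Ly7, at 8 h and 24 h. In U2932 at 24 h that probe was above the background on 0 of 3 trabectedin arrays, so the size of -3.38 is not exact.

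BARD1, the partner that forms a ubiquitin ligase with BRCA1, fell by 0.90 ± 0.09 and 1.28 ± 0.08 in U2932 and by 1.08 ± 0.16 in OCI-Ly7 at 8 h (limma adjusted p from 3.18e-06 to 0.000212). Its OCI-Ly7 change at 24 h was -0.41 ± 0.18 and was not called (adjusted p = 0.0909). PALB2, which links BRCA1 to BRCA2, moved the other way. Its values in U2932 at 8 h were 6.33, 6.61 and 6.49 with DMSO and 7.11, 6.86 and 6.97 with trabectedin, a rise of 0.50 ± 0.10 (limma adjusted p = 0.00112) that turned to -0.19 under median scaling. It rose by 0.40 ± 0.07 in U2932 at 24 h, which turned to -0.82 under median scaling, and by 0.50 ± 0.15 in OCI-Ly7 at 8 h. The OCI-Ly7 call was lost without the DMSO array of replicate 1 (0.35, adjusted p = 0.0746). For comparison, BRCA1, whose treated arrays were in the background there, changed by -3.42 in U2932 at 24 h under median scaling.

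**Figure D2:**
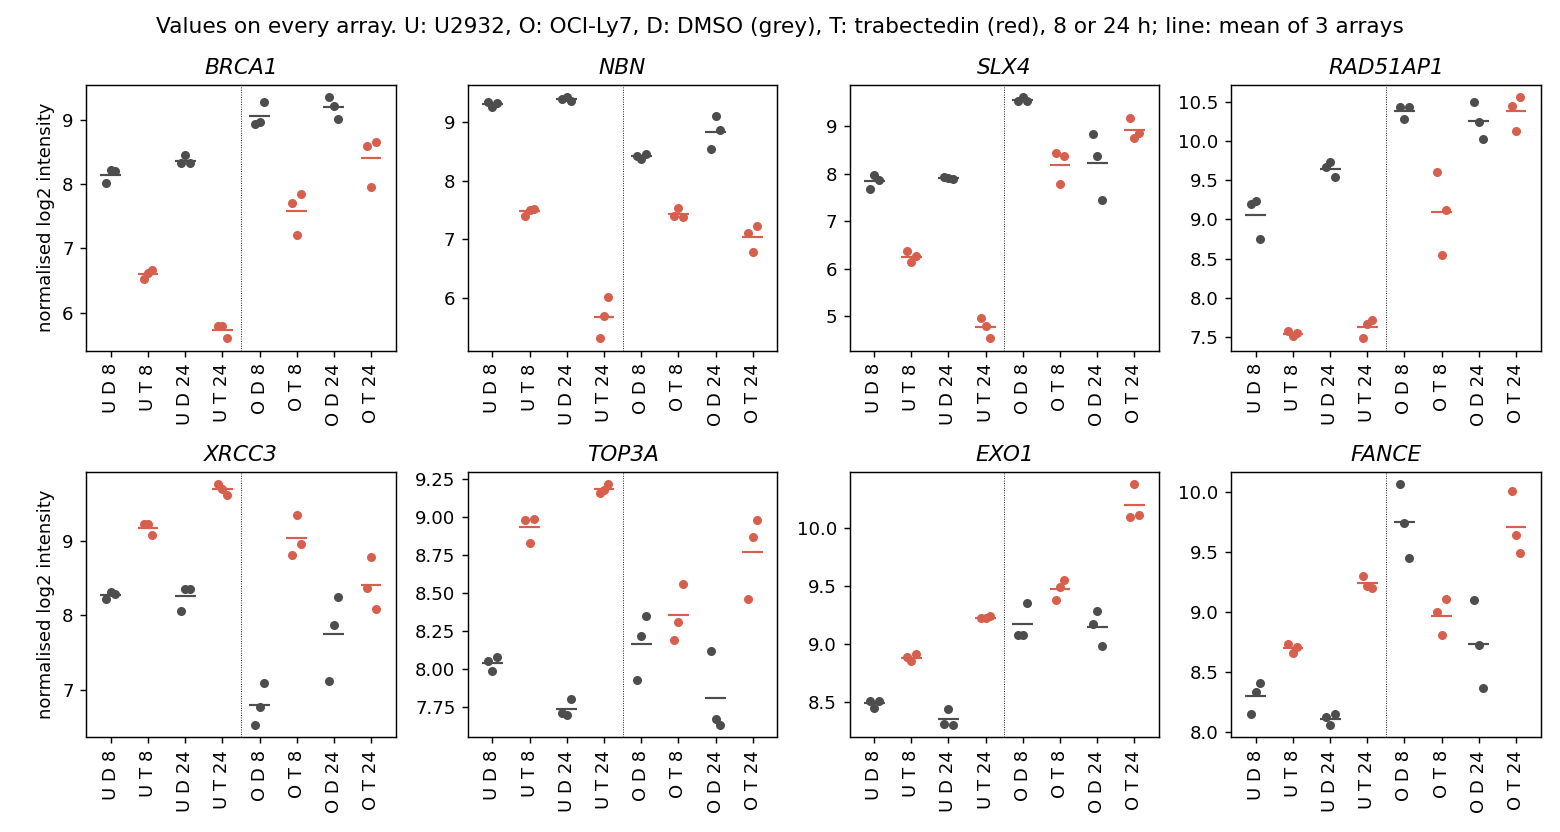
Normalised log2 intensity (vertical axis) of 8 genes on each of the 24 arrays, 3 points per group, with the group mean as a line. U is U2932, O is OCI-Ly7, D (grey) DMSO and T (red) trabectedin, with the hours after them. BRCA1 and NBN are lower with trabectedin in every pair of groups, XRCC3 is highest with trabectedin in U2932 at 24 h (9.62 to 9.77), and FANCE with trabectedin is below DMSO in OCI-Ly7 at 8 h and above it in the other pairs.

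The genes that assist strand exchange were split. XRCC3, which works with RAD51C in strand exchange and in late steps of recombination, gave the largest rise of the 29 genes, in OCI-Ly7 at 8 h. There it read 6.52, 6.76 and 7.09 with DMSO and 8.81, 9.35 and 8.96 with trabectedin. It rose by 2.25 ± 0.18 (limma adjusted p = 6.91e-06), a 4.76-fold difference, and by 2.19 under median scaling.

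In U2932, XRCC3 was 8.22, 8.31 and 8.28 with DMSO and 9.23, 9.23 and 9.08 with trabectedin at 8 h, and 8.06, 8.35 and 8.36 against 9.77, 9.70 and 9.62 at 24 h. Treated and control arrays were apart at both times. The rises were 0.91 ± 0.08 and 1.44 ± 0.10 (limma adjusted p = 3.46e-06 and 5.20e-06). At 24 h in OCI-Ly7 the control arrays were spread from 7.12 to 8.24, the groups overlapped, and the change of 0.67 ± 0.29 was not called (adjusted p = 0.0887).

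XRCC2, which acts in a complex with RAD51B, RAD51C and RAD51D, rose by 0.77 ± 0.17 and 0.98 ± 0.11 in U2932 (limma adjusted p = 0.00257 and 7.11e-05). Its OCI-Ly7 changes of 0.47 and 0.95 were not called (adjusted p = 0.0922 and 0.0642). In that line at 24 h its values were 8.68, 9.15 and 10.34 with DMSO, the last on the array that stood apart, and 9.99, 10.40 and 10.63 with trabectedin. RAD54L, a motor protein that drives strand exchange, rose by 0.55 ± 0.08 and 0.50 ± 0.06 in U2932 (adjusted p = 0.000157 and 0.000207), which became -0.10 and -0.64 under median scaling. Its OCI-Ly7 changes were -0.02 and 0.44 and were not called.

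RAD51AP1, which stimulates the pairing of the strands, fell. In U2932 it read 9.20, 9.23 and 8.75 with DMSO and 7.57, 7.51 and 7.55 with trabectedin at 8 h, and 9.67, 9.73 and 9.54 against 7.48, 7.67 and 7.71 at 24 h. In OCI-Ly7 at 8 h the arrays read 10.43, 10.28 and 10.43 against 9.60, 8.55 and 9.12. These groups did not overlap, and the falls were 1.52 ± 0.12, 2.02 ± 0.09 and 1.29 ± 0.22 (limma adjusted p = 2.89e-06, 4.77e-07 and 0.000554). At 24 h in OCI-Ly7 its values were 10.50, 10.24 and 10.02 with DMSO and 10.44, 10.13 and 10.56 with trabectedin, which overlap, and the change was 0.12 ± 0.19 (adjusted p = 0.636).

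RAD54B, a relative of RAD54L, fell in all 4 effects. In U2932 it read 7.56, 7.34 and 7.65 with DMSO and 5.79, 5.88 and 6.34 with trabectedin at 8 h, and it fell by 1.51 ± 0.15 (limma adjusted p = 9.35e-06). At 24 h all 3 treated arrays were in the background and its level was at least 2.58-fold lower (adjusted p = 7.69e-06). In OCI-Ly7 it fell by 0.77 ± 0.14 and 0.59 ± 0.19 (adjusted p = 0.000746 and 0.0334). The relatives RAD54L and RAD54B thus moved in opposite directions in U2932 under quantile normalisation.

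RAD51B and RAD51D, which form a complex with RAD51C and XRCC2, were dim. RAD51B lay between 5.69 and 6.25 on the 12 DMSO arrays and between 4.43 and 5.52 on the 12 trabectedin arrays, where it was always in the background. In OCI-Ly7 it was at least 1.30-fold lower at 8 h and 1.27-fold lower at 24 h (limma adjusted p = 0.000448 and 0.00102). In U2932 it was also called lower, and no fold is given because its DMSO level did not exceed the lowest detected signals. RAD51D was called lower in U2932 at both times, again with all treated arrays in the background, and fell by 0.44 ± 0.15 in OCI-Ly7 at 8 h (adjusted p = 0.0234).

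RAD51C gave different answers by its probes. Which transcript a probe reads was taken from the array annotation and was not checked by sequence. The brightest probe, which the annotation assigns to a short transcript, read 10.72, 10.66 and 10.71 with DMSO and 10.52, 10.52 and 10.52 with trabectedin in U2932 at 8 h. Its changes were small in all 4 effects, from -0.18 to -0.12, and only the first passed the test (limma adjusted p = 0.0353). A probe assigned to the full-length transcript read 9.32, 9.45 and 9.39 with DMSO and 7.78, 8.06 and 8.12 with trabectedin on the same arrays.

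That probe fell by 1.40 and 1.71 in U2932 at 8 h and 24 h, and by 1.07 and 1.17 in OCI-Ly7 (limma adjusted p from 7.78e-07 to 0.000302). A further probe of that assignment changed by -1.51, -2.97, -1.33 and -1.32 in the same order. Both were lower with trabectedin in both lines and at both times, while the brightest probe stayed within 0.18 of DMSO. In the counts above RAD51C stands for its brightest probe alone.

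**Figure D3:**
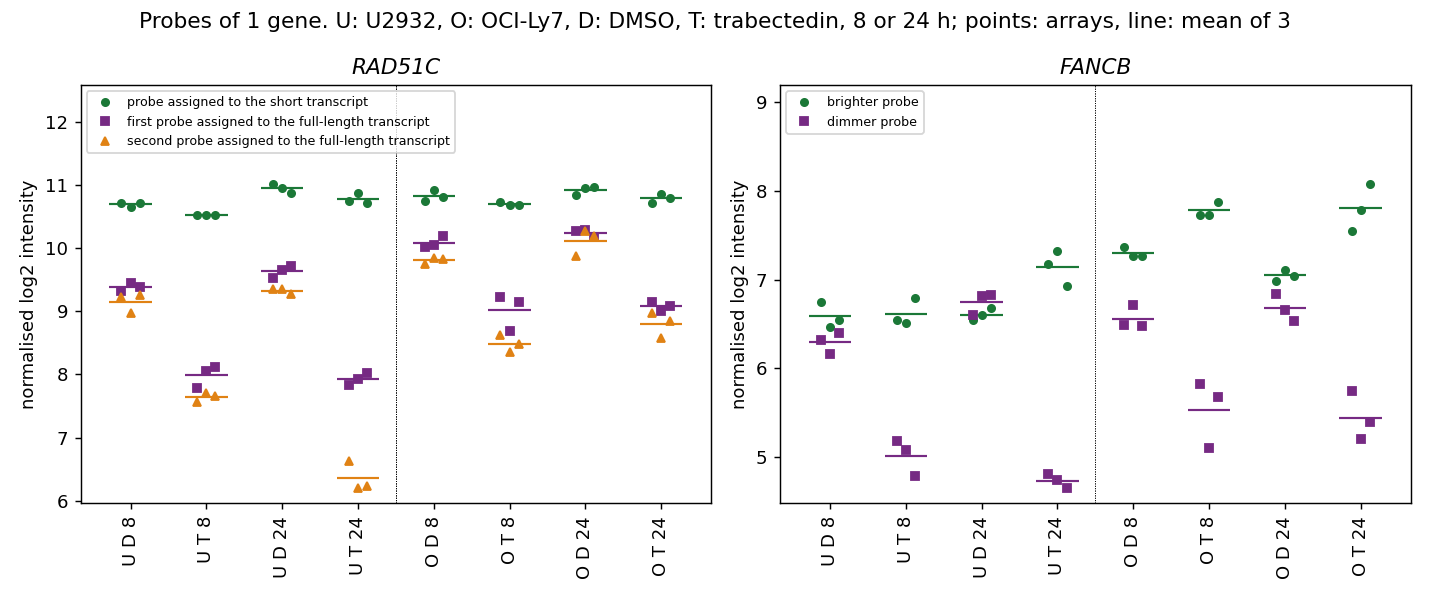
Normalised log2 intensity (vertical axis) of the 3 RAD51C probes and the 2 FANCB probes on each array, 3 points per group with the mean as a line. U is U2932, O is OCI-Ly7, D DMSO and T trabectedin, with the hours after them. The RAD51C probe assigned to the short transcript stays between 10.52 and 11.02 in every group, while the other 2 drop with trabectedin in every pair of groups. The brighter FANCB probe is higher with trabectedin in 3 of the 4 pairs and the dimmer one is lower in all 4.

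Promoter windows show what the genes share at the sequence level. RefSeq windows of 300 bases (GRCh38.p14), mostly upstream of the start, were matched to 26 of the 29 genes, giving 35 windows. A match to any of the E2F-type letters TTTCCCGC, TTTGGCGC, TTTCGCGC, TTTGCCGC or GGCGGGAA, on either strand, was found in 34.3% of them and in 5.6% of 35116 windows of all genes. The windows of these genes were also richer in CpG, with a median of 26 against 14, which was not adjusted for. CCAAT was found in 34.3% against 34.6%, GGGCGG in 65.7% against 45.0%, TTTGAA in 5.7% against 15.2%, and TATAAA in 0 of the 35 against 11.5%. GGCGGGAA and the other E2F-type letters can overlap GGGCGG by a few bases.

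The 10 genes with an E2F-type match did not move together. BLM, FANCC, FANCL and RAD51AP1 were called lower in at least 3 effects, and XRCC3, EXO1 and TOP3A were called higher in 3. XRCC2 and RAD54L were called higher in U2932 alone, and RMI1 was called in none by its brighter probe. RAD51AP1 and XRCC3 are shown because they moved in opposite directions while both hold GGCGGGAA. Capitals mark this match and the CCAAT matches, which read ATTGG on the other strand. The windows are chr12:4538640-4538939 on the plus strand for RAD51AP1 and chr14:103715402-103715701 on the minus strand for XRCC3.
RAD51AP1: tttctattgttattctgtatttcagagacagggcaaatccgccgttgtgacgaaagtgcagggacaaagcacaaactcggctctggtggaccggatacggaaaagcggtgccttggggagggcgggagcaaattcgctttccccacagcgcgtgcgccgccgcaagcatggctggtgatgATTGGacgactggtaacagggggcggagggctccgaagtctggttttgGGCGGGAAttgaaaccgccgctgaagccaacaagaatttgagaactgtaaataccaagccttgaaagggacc
XRCC3: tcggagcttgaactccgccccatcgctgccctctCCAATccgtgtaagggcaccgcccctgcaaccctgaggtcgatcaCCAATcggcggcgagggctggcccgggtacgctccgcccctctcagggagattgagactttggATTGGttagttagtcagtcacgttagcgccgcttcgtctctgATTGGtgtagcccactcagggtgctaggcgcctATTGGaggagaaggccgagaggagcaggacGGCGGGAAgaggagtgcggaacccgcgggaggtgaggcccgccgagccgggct

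Among the genes of end resection, NBN and MRE11 fell and EXO1 rose. NBN is the subunit that brings the MRE11 nuclease and RAD50 to broken ends and passes the signal to the kinase ATM. In U2932 it read 9.34, 9.26 and 9.32 with DMSO and 7.40, 7.51 and 7.52 with trabectedin at 8 h, and 9.39, 9.43 and 9.36 against 5.31, 5.69 and 6.01 at 24 h. The groups were far apart at both times, and at 24 h every treated array was in the background. It fell by 1.83 ± 0.07 at 8 h (limma adjusted p = 3.10e-08), and at 24 h it was at least 9.13-fold lower (adjusted p = 5.35e-07), the largest bound among the 29 genes.

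In OCI-Ly7 NBN read 8.43, 8.38 and 8.45 with DMSO and 7.40, 7.53 and 7.39 with trabectedin at 8 h, and 8.54, 9.11 and 8.87 against 7.11, 6.78 and 7.23 at 24 h. It fell by 0.98 ± 0.11 and by 1.80 ± 0.20 (limma adjusted p = 4.87e-05 and 0.00016), with no overlap. At 24 h in OCI-Ly7 this was the largest fall of the 29 genes. A dimmer NBN probe gave -1.13, -1.68 and -1.24 in the first 3 effects, but only -0.51 in OCI-Ly7 at 24 h, which was not called (adjusted p = 0.0783). In U2932 at 24 h that probe was above the background on 0 of 3 trabectedin arrays, so -1.68 is not an exact size.

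The brightest MRE11 probe read 7.23, 7.69 and 7.54 with DMSO and 6.58, 6.28 and 6.65 with trabectedin in U2932 at 8 h, and 7.82, 7.67 and 7.73 against 5.27, 4.90 and 5.64 at 24 h. It fell by 0.98 ± 0.14 (limma adjusted p = 0.000122) and at 24 h, where this probe was in the background with trabectedin, it was at least 2.91-fold lower (adjusted p = 6.54e-06). It fell by 0.48 ± 0.13 in OCI-Ly7 at 8 h (adjusted p = 0.00897) and its groups overlapped at 24 h (-0.07 ± 0.16). The gene itself stayed above the background, since a second probe was detected on all 24 arrays. That probe read 7.38, 7.23 and 7.17 with DMSO and 6.22, 6.47 and 6.61 with trabectedin in U2932 at 24 h, and its changes were smaller: -0.45, -0.83, -0.47 and -0.35 in the 4 effects, of which the first 3 were called (limma adjusted p = 0.00262, 0.000258 and 0.0495). The dimmest probe changed by 0.01, -1.16, -0.15 and -0.51, and was called at 24 h in both lines (adjusted p = 0.000104 and 0.0336). It was above the background on 0 of 3 trabectedin arrays in U2932 at 24 h, so -1.16 is not an exact size.

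By its brighter probe EXO1, the exonuclease that extends the trimmed end, rose more at 24 h than at 8 h. In U2932 it read 8.51, 8.45 and 8.51 with DMSO and 8.89, 8.85 and 8.91 with trabectedin at 8 h, and 8.31, 8.44 and 8.30 against 9.22, 9.22 and 9.24 at 24 h. In OCI-Ly7 at 24 h it read 9.17, 9.28 and 8.98 against 10.09, 10.38 and 10.11. The changes were 0.40 ± 0.07, 0.88 ± 0.07 and 1.05 ± 0.17 (limma adjusted p = 0.000537, 8.18e-06 and 0.000948), and that of OCI-Ly7 at 8 h, 0.30 ± 0.13, did not pass (adjusted p = 0.0603). The first turned to -0.10 when arrays were scaled to their median, and the OCI-Ly7 rise at 24 h was then 0.33 with an adjusted p of 0.466. Under that scaling the U2932 rise at 24 h lost its call too. A dimmer EXO1 probe, also detected on all 24 arrays, rose by 0.34 and 0.82 in U2932 at 8 h and 24 h. In OCI-Ly7 it rose by 0.72 at 8 h and 0.61 at 24 h. Each of these rises was called (limma adjusted p from 3.61e-05 to 0.032), so in OCI-Ly7 this probe passed at 8 h and rose no more at 24 h.

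Several of these genes start close to a neighbour that is read the other way, so that a shared window can be set against separate changes. In 6 such pairs both genes were tested, under quantile normalisation only. Both were called in the same direction in 2 pairs and in opposite directions in 1 in U2932 at 8 h, and in 1 and 3 at 24 h. In OCI-Ly7 the counts were 2 and 0 at 8 h and 1 and 0 at 24 h, so by the probes used no pair was called opposite there. The pair at 24 h was FANCB and MOSPD2, which rose by 0.763 and 0.538. This rests on the brighter FANCB probe, and the dimmer one was called lower there (-1.235, limma adjusted p = 0.000696). Of all single genes, 77.1%, 84.5%, 59.6% and 46.2% were called in these effects, and the share over all such pairs was not counted. RAD51AP1 starts 421 bases from FERRY3, which fell with it at 8 h in both lines (by 0.98 and 0.97). In U2932 at 24 h FERRY3 rose by 0.31 ± 0.08 (limma adjusted p = 0.0070) while RAD51AP1 fell. Median scaling moved the median of all genes to -0.73 in that effect, and whether the rises of neighbours hold under it was not tested. MRE11 starts 140 bases from ANKRD49, whose intensity rose by 0.70 ± 0.08 in U2932 at 24 h (limma adjusted p = 0.000124) while the 3 MRE11 probes fell, the one detected on all arrays by 0.83. PALB2 starts 156 bases from DCTN5, which fell by 0.28 and 0.20 in U2932 at 8 h and 24 h (adjusted p = 0.0101 and 0.0140) where PALB2 rose under quantile normalisation. XRCC3 starts 359 bases from ZFYVE21, and there both genes rose, ZFYVE21 by 1.47, 1.91, 1.16 and 0.92 in the 4 effects (adjusted p from 9.56e-08 to 0.00126).

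The windows of MRE11 and PALB2 are shown because the start of a neighbour also lies in them that was called the other way in U2932 under quantile normalisation. The PALB2 rises turned under median scaling, and the neighbours were not compared under it. They are chr11:94493795-94494094 and chr16:23641261-23641560 of GRCh38.p14, both on the minus strand, with the CCAAT matches (either strand) in capitals. Neither holds an E2F-type match as spelled above.
MRE11: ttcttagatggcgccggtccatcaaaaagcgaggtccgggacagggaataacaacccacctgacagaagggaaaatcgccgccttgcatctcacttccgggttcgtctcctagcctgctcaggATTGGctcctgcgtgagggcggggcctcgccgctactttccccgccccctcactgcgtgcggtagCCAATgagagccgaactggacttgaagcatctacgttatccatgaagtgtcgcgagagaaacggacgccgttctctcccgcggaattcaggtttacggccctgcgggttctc
PALB2: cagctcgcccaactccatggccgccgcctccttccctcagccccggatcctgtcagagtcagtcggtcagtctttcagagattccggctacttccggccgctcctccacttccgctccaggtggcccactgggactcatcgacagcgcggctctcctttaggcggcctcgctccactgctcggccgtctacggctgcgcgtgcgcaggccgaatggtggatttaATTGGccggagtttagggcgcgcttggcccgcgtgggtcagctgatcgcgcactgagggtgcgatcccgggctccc

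Helicases and nucleases that resolve joined molecules were divided as well. SLX4, the scaffold that holds several of these nucleases, showed the widest contrast between the lines. In U2932 it read 7.67, 7.96 and 7.87 with DMSO and 6.36, 6.14 and 6.26 with trabectedin at 8 h, and 7.92, 7.90 and 7.88 against 4.97, 4.80 and 4.53 at 24 h. Groups were apart at both times. It fell by 1.58 ± 0.10 (limma adjusted p = 4.84e-07) and, with every treated array in the background at 24 h, was at least 3.25-fold lower (adjusted p = 2.09e-07).

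In OCI-Ly7 SLX4 read 9.53, 9.61 and 9.52 with DMSO and 8.43, 7.78 and 8.36 with trabectedin at 8 h, a fall of 1.36 ± 0.17 (limma adjusted p = 7.43e-05). At 24 h the DMSO arrays read 8.83, 8.37 and 7.44 and the trabectedin arrays 9.16, 8.75 and 8.86. The groups overlapped, the lowest control was the array that stood apart, and the change of 0.71 ± 0.32 was not called (adjusted p = 0.0935).

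BLM, the helicase that with TOP3A and RMI1 dissolves joined molecules without crossing over, fell by 0.86 ± 0.08 and 2.04 ± 0.16 in U2932 and by 1.16 ± 0.15 and 0.84 ± 0.23 in OCI-Ly7 (limma adjusted p from 7.41e-06 to 0.0139). TOP3A, the topoisomerase of that complex, rose. It read 8.05, 7.99 and 8.08 with DMSO and 8.98, 8.83 and 8.99 with trabectedin in U2932 at 8 h, and 7.71, 7.70 and 7.8 against 9.16, 9.18 and 9.22 at 24 h. The rises were 0.89 ± 0.08 and 1.45 ± 0.06 (adjusted p = 4.31e-06 and 4.39e-07).

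In OCI-Ly7 TOP3A was 8.12, 7.67 and 7.63 with DMSO and 8.46, 8.87 and 8.98 with trabectedin at 24 h, a rise of 0.96 ± 0.21 (limma adjusted p = 0.00442) that shrank to 0.07 under median scaling. A dimmer TOP3A probe did not follow: its changes were -0.09, 0.18, -0.38 and 0.24 in the 4 effects, and of these only the fall in OCI-Ly7 at 8 h passed the test (adjusted p = 0.0256). RMI1 changed by -0.18 to 0.30 by its brighter probe and was called in no effect (adjusted p from 0.130 to 0.744). A dimmer RMI1 probe rose by 0.20 to 0.23 in the 4 effects, and only the rise in U2932 at 8 h passed (limma adjusted p = 0.0421). The members of this complex thus differed: BLM was called lower in all 4 effects. By their brighter probes TOP3A was called higher in 3 and RMI1 in none.

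MUS81 and EME1 form a nuclease that cuts joined molecules. EME1 rose by 0.55 ± 0.08, 0.73 ± 0.09 and 0.45 ± 0.13 in U2932 at 8 h, at 24 h and in OCI-Ly7 at 8 h (limma adjusted p = 0.000251, 0.000153 and 0.0110), which under median scaling became -0.105, -0.488 and 0.365. The OCI-Ly7 call was lost without the trabectedin array of replicate 3 (0.37, adjusted p = 0.0535). MUS81 changed direction with time in U2932. It read 8.08, 8.02 and 8.09 with DMSO and 7.82, 7.53 and 7.66 with trabectedin at 8 h, and 7.60, 7.62 and 7.50 against 8.08, 7.94 and 7.91 at 24 h. It fell by 0.39 ± 0.09 and then rose by 0.40 ± 0.07 (adjusted p = 0.00261 and 0.00128), but the rise turned to -0.73 under median scaling. In OCI-Ly7 it fell by 0.38 ± 0.12 at 8 h (adjusted p = 0.0173), a call lost without the DMSO array of replicate 1 (-0.35, adjusted p = 0.0660). In U2932 the DMSO level of MUS81 itself fell by 0.49 from 8 h to 24 h (limma adjusted p = 0.000888). In OCI-Ly7 it changed by -0.06, which was not called.

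FAN1, a nuclease recruited by ubiquitinated FANCD2, fell by 0.52 ± 0.07 in U2932 at 8 h (limma adjusted p = 0.000108). At 24 h it was in the background with trabectedin and at least 1.46-fold lower (adjusted p = 2.47e-05). In OCI-Ly7 it was in the background on all 12 arrays, so no fold is given there.

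Within the Fanconi anaemia pathway, FANCL, the ubiquitin ligase of the core complex, and its conjugating enzyme UBE2T both fell. FANCL read 8.65, 8.86 and 8.65 with DMSO and 7.50, 7.31 and 7.49 with trabectedin in U2932 at 8 h, and 9.06, 9.03 and 9.17 against 6.63, 6.34 and 6.12 at 24 h, where 2 of the 3 treated arrays were above the background. It fell by 1.28 ± 0.09 and by 2.73 ± 0.13 (limma adjusted p = 1.24e-06 and 7.49e-07), and by 0.96 ± 0.18 in OCI-Ly7 at 8 h (adjusted p = 0.00116). UBE2T fell by 0.62 ± 0.07, 0.89 ± 0.07 and 0.61 ± 0.14 in the same effects (adjusted p = 4.36e-05, 1.04e-05 and 0.00403). At 24 h in OCI-Ly7 neither was called, with -0.41 ± 0.19 for FANCL and -0.20 ± 0.15 for UBE2T.

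FANCI, a substrate of that ligase, fell by 0.29 ± 0.08 and 1.47 ± 0.07 in U2932 and by 0.86 ± 0.13 in OCI-Ly7 at 8 h (limma adjusted p = 0.00714, 8.88e-07 and 0.00027), with 0.12 ± 0.21 in OCI-Ly7 at 24 h. FANCG, a scaffold of the core complex, fell in the same 3 effects, by 0.58 ± 0.11, 1.03 ± 0.07 and 0.65 ± 0.15 (adjusted p = 0.000965, 3.78e-06 and 0.00411). Its OCI-Ly7 values at 24 h were 9.48, 9.15 and 8.76 with DMSO and 10.17, 9.60 and 9.48 with trabectedin, and the change of 0.62 ± 0.24 was not called (adjusted p = 0.0629).

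FANCE, which bridges the core complex to FANCD2, was called in both directions. In U2932 it read 8.15, 8.34 and 8.41 with DMSO and 8.74, 8.66 and 8.71 with trabectedin at 8 h, and 8.13, 8.06 and 8.15 against 9.30, 9.22 and 9.20 at 24 h. In OCI-Ly7 it read 10.07, 9.74 and 9.45 against 9.00, 8.81 and 9.11 at 8 h, and 9.10, 8.73 and 8.37 against 10.01, 9.64 and 9.49 at 24 h. The trabectedin arrays lay below all controls in OCI-Ly7 at 8 h and above all controls in the other 3 effects.

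FANCE rose by 0.40 ± 0.08 and 1.13 ± 0.06 in U2932, fell by 0.78 ± 0.17 in OCI-Ly7 at 8 h and rose by 0.98 ± 0.22 at 24 h (limma adjusted p = 0.00188, 1.64e-06, 0.00213 and 0.00609). Under median scaling the first turned to -0.14 and the last was 0.19 with an adjusted p of 0.705. In OCI-Ly7 with DMSO it had fallen by 1.02 ± 0.22 from 8 h to 24 h (adjusted p = 0.0434), a call that several alternatives lost (adjusted p from 0.0513 to 0.477).

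FANCC and FANCF, further subunits, were near the background. FANCC was between 4.27 and 4.69 on the 12 trabectedin arrays, always in the background, and was called lower in all 4 effects. In OCI-Ly7 at 8 h alone the control level allowed a bound, at least 1.02-fold lower (limma adjusted p = 2.09e-05). FANCF was called lower in U2932 at both times and in OCI-Ly7 at 24 h, with treated arrays in the background and no fold. In OCI-Ly7 at 24 h, 1 of the 3 DMSO arrays was above the background for each gene, and the FANCC call there (-0.90, adjusted p = 0.0346) was lost when any 1 array other than DMSO replicate 3 was left out (adjusted p from 0.0632 to 0.101).

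FANCB, a core subunit encoded on the X chromosome, split between its probes. The brighter probe read 6.54, 6.60 and 6.68 with DMSO and 7.18, 7.32 and 6.93 with trabectedin in U2932 at 24 h, and the dimmer one, assigned to another transcript, 6.60, 6.81 and 6.83 against 4.81, 4.74 and 4.65. The brighter probe rose by 0.53 ± 0.11, 0.48 ± 0.12 and 0.76 ± 0.18 in U2932 at 24 h and in OCI-Ly7 at 8 h and 24 h (limma adjusted p = 0.00224, 0.00474 and 0.00683), while the dimmer fell by 2.02, 1.03 and 1.24 (adjusted p = 4.61e-07, 0.000749 and 0.000696). The rise turned to -0.70 under median scaling in U2932 at 24 h and to -0.14 in OCI-Ly7 at 24 h. The dimmer probe was detected on only 12 of the 24 arrays. Its values with trabectedin lay below the lowest detected signals of those arrays, so the sizes of its falls are not exact. With the mean of both probes the OCI-Ly7 changes were -0.28 and -0.24 and were not called, so no single direction is given for the gene.

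The difference between the effects in the lines was tested itself. At 8 h it was called for 10 of the 29 genes, where 44.8% of all genes were called. XRCC3 rose less in U2932 than in OCI-Ly7, by 1.34 ± 0.21 (limma adjusted p = 0.000188), NBN fell more in U2932 by 0.85 ± 0.12 (adjusted p = 9.79e-05), and FANCE differed by 1.18 ± 0.20 (adjusted p = 0.000288), being higher in U2932 and lower in OCI-Ly7. Without replicate 1 the difference was called for 6 genes, and those of FANCI, RAD54L and RAD54B were lost (adjusted p = 0.0737, 0.18 and 0.105).

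At 24 h the difference was called for 15 genes, where 58.3% of all genes were called. In 14 of the 15 the change was more negative in U2932 (35.9% of all genes, with 22.4% less negative): the difference was -3.85 ± 0.38 for SLX4, -2.40 ± 0.23 for MRE11, -2.31 ± 0.23 for FANCL and -2.15 ± 0.21 for RAD51AP1 (limma adjusted p from 2.43e-06 to 2.86e-06). The SLX4 probe and the MRE11 probe used had reached the background in U2932, so these sizes are fitted and not exact. By the MRE11 probe detected on every array the difference was -0.48 and was not called (adjusted p = 0.14). The exception was FANCF, at 0.69 ± 0.20 (adjusted p = 0.00972), whose treated arrays were in the background in both lines. This call was lost with no background correction, an offset of 50, median scaling and the deposited log2 values, where the difference was 0.19 to 0.33 (adjusted p from 0.0505 to 0.659), and without replicate 1 or replicate 2 (adjusted p = 0.0535 and 0.141). Because line and chip cannot be told apart, the part of the chips in these differences was not tested.

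**Figure D4:**
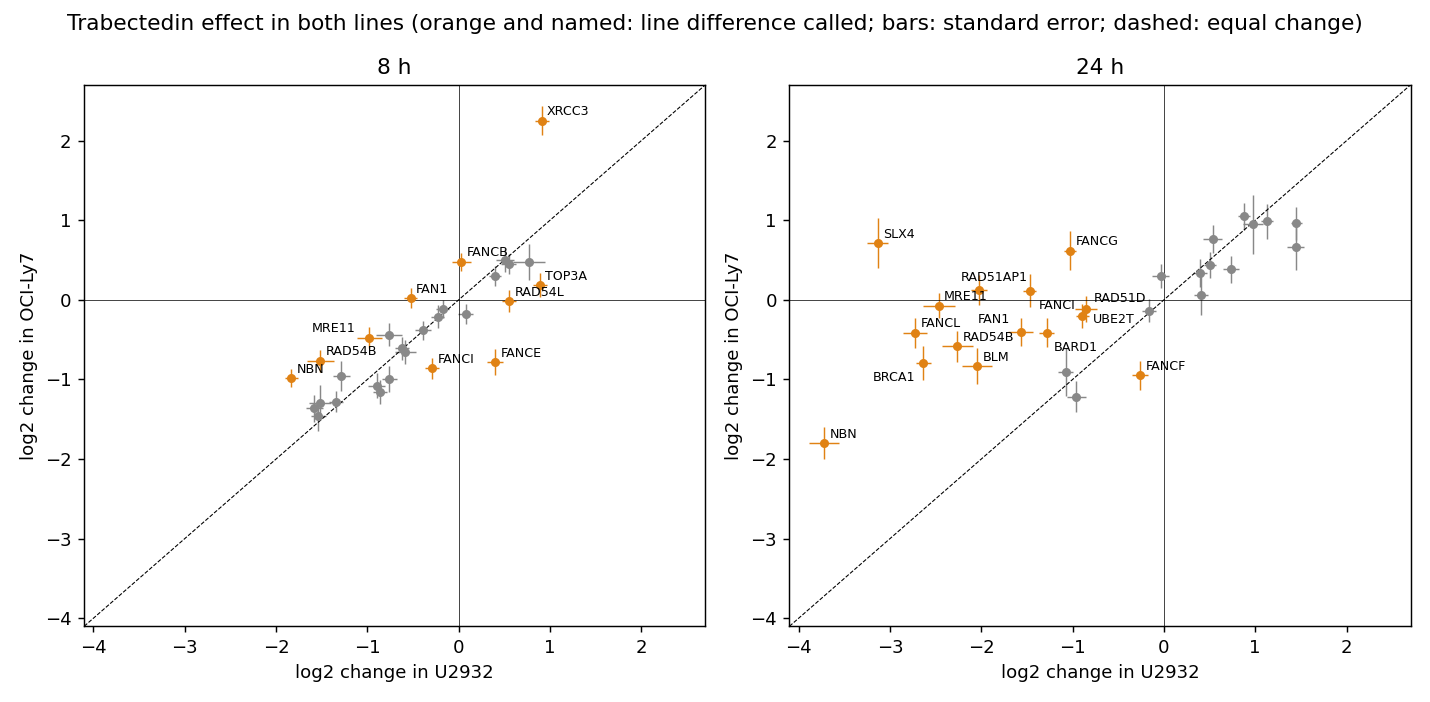
Log2 change (trabectedin minus DMSO) in U2932 (horizontal axis) against OCI-Ly7 (vertical axis) for the 29 genes at 8 h and 24 h, with standard errors. Orange, named genes are those whose line difference was called, 10 at 8 h and 15 at 24 h, and the dashed line marks equal change. At 24 h, 14 of the 15 named genes lie above the dashed line, with FANCF below it.

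With time the gap to DMSO widened in U2932 for many of the falling genes. The change at 24 h differed from that at 8 h for 19 of the 29 genes (57.2% of all genes), 13 of them toward lower values (33.4% of all genes) and 6 toward higher (23.8%). The fall of FANCL against DMSO was larger by 1.44 ± 0.16 (limma adjusted p = 1.59e-05), and that of FANCI by 1.18 ± 0.10 (adjusted p = 1.73e-06). Part of such differences lies in the DMSO arrays. The FANCL means at 8 h and 24 h were 7.43 and 6.36 with trabectedin and 8.72 and 9.09 with DMSO. RAD51AP1 means were 7.54 and 7.62 with trabectedin and 9.06 and 9.65 with DMSO. With trabectedin FANCG (7.73 and 7.79) and UBE2T (9.79 and 9.76) also stayed level. In OCI-Ly7 the difference was called for 11 genes (31.1% of all genes), 3 of them toward lower (14.4% of all genes) and 8 toward higher values (16.7%), the latter led by SLX4 at 2.07 ± 0.40 and FANCE at 1.77 ± 0.29 (adjusted p = 0.00208 and 0.000967). The DMSO levels of SLX4 and FANCE fell by 1.34 and 1.02 from 8 h to 24 h in that line, which enters these differences. XRCC3 went the other way in that line, by -1.58 ± 0.38 (adjusted p = 0.00721), where its DMSO level rose by 0.95, a rise that was not called. Under median scaling only 2 genes were called in OCI-Ly7 for this difference, with SLX4 at 1.24 and FANCE at 0.98 not among them (adjusted p = 0.0917 and 0.113). Without replicate 2 only 3 were called and without replicate 3 only 6; SLX4 and XRCC3 lost their calls without replicate 2 (adjusted p = 0.0504 and 0.0809).

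Leaving out the OCI-Ly7 DMSO array that stood apart moved no count over 1.5 times. At 24 h in that line 6 genes were then called higher and 7 lower, in place of 4 and 7. Without replicate 2 of DMSO or of trabectedin, 4 were called lower. Without the array that stood apart, the time difference in OCI-Ly7 was called for 10 genes and the line difference at 24 h for 16. SLX4 then differed by -3.46 between the lines at 24 h and by 1.68 between the times in OCI-Ly7 (limma adjusted p = 6.60e-07 and 0.0014).

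The lines already differed with DMSO alone. Over both times, 6 arrays a line, 20 of the 29 genes were called, 5 higher and 15 lower in U2932, where 70.4% of all genes were called, 36.6% higher and 33.8% lower. FAN1 was 6.81 ± 0.11 (SD, n = 6) in U2932 and 5.27 ± 0.15, in the background, in OCI-Ly7. FANCL was 8.90 ± 0.22 against 7.99 ± 0.18 and XRCC3 8.27 ± 0.11 against 7.27 ± 0.66. The OCI-Ly7 levels were higher for FANCE (9.24 ± 0.64 against 8.21 ± 0.13), RAD54L (8.52 ± 0.19 against 7.49 ± 0.08) and SLX4 (8.88 ± 0.86 against 7.87 ± 0.10). Each of these 6 differences passed the test, with limma adjusted p from 4.43e-10 to 9.13e-05. The means pool both times. At 8 h and 24 h SLX4 was 9.55 and 8.21 in OCI-Ly7 against 7.83 and 7.90 in U2932. XRCC3 was 6.79 and 7.74 against 8.27 and 8.26, so both line differences were smaller at 24 h. FANCE also fell in OCI-Ly7, by 1.02, while FAN1, FANCL and RAD54L changed there by only -0.04, -0.27 and -0.20.

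The DMSO levels also moved between 8 h and 24 h. In U2932 10 genes were called (22.2% of all genes), 7 higher and 3 lower at 24 h (10.5% and 11.7% of all genes). These were led by RAD51AP1 (0.58 ± 0.11), FANCG (0.51 ± 0.07) and MUS81 (-0.49 ± 0.07), with limma adjusted p = 0.00426, 0.000944 and 0.000888. In OCI-Ly7 only SLX4 and FANCE were called (5.96% of all genes, 2.46% higher and 3.50% lower), both lower at 24 h, by 1.34 ± 0.30 and 1.02 ± 0.22 (adjusted p = 0.0451 and 0.0434). Neither was called with no background correction, an offset of 50, median scaling or no filter on dim probes (adjusted p from 0.0513 to 0.179), nor without replicate 2 (0.477 for both). With a spread shared over all 24 arrays, 0 genes were called in U2932 and 7 in OCI-Ly7. Without replicate 2 or replicate 3 the U2932 count was 4, and without replicate 1 the OCI-Ly7 count was 4.

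Other genes of these pathways, from a longer list, were called in both directions. The shares of all genes called higher and lower were 37.2% and 39.9%, 38.0% and 46.4%, 28.7% and 30.9%, and 22.3% and 23.9% in the 4 effects, and no difference between lists was tested. Of 49 tested, 16 were called higher and 21 lower in U2932 at 8 h, 17 and 24 at 24 h, 14 and 20 in OCI-Ly7 at 8 h, and 12 and 11 at 24 h. UIMC1, which holds a BRCA1 complex at damaged chromatin, changed by -2.49 and -3.28 in U2932 and by -2.35 in OCI-Ly7 at 8 h (limma adjusted p from 2.84e-08 to 2.08e-05). PSMC3IP, which stimulates strand exchange as a partner of MND1, rose by 1.64 and 2.12 in U2932, and by 1.18 and 1.72 under median scaling, while MND1 was at least 7.26-fold lower in U2932 at 24 h (adjusted p = 3.98e-07).

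Genes of the end joining pathways, which rejoin breaks without a template, were called higher and lower in 3 and 11 of 16 tested in U2932 at 8 h, 3 and 10 at 24 h, 2 and 9 in OCI-Ly7 at 8 h, and 2 and 5 at 24 h. XRCC5, a subunit of the Ku dimer that binds broken ends, fell by 3.08 ± 0.07 in U2932 and by 2.42 ± 0.18 in OCI-Ly7 at 24 h (limma adjusted p = 3.49e-08 and 2.19e-05). LIG4, the ligase of that pathway, rose in U2932 by 0.97 and 1.48, and by 0.554 and 0.525 under median scaling. Its DMSO means of 5.39 and 5.41 lay near the lowest detected signals, which makes these sizes uncertain.

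Markers of S phase and of the later cell cycle moved beside these genes in both directions. Of 28 tested, 11 were called higher and 10 lower in U2932 at 8 h, 13 and 11 at 24 h, 8 and 11 in OCI-Ly7 at 8 h, and 7 and 3 at 24 h. Their median change was 0.07, 0.16, -0.09 and 0.00. RRM2, a subunit of ribonucleotide reductase, fell in all 4 effects, by 1.31, 1.80, 1.36 and 1.55, and CCNE1, the cyclin of S phase entry, rose by 1.97 and 1.89 in U2932. The share of the cell cycle in the changes of the recombination genes was not tested.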

How the data were processed

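The authors deposited probe intensity on a linear scale for 47231 probes on 24 arrays. A second table that the authors deposited holds log2 values; these matched a quantile normalisation of the log2 intensities to within 4.99e-09 and served as an alternative. Per the labels, RNA was labelled with biotin using the Ambion TotalPrep kit; how intensities were summarised is not given in the sources used here.

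The tables lack detection p-values, so 663 probes of families such as olfactory receptors, which B cells do not express, stood in for negative controls. The share of them at least as bright was a probe's detection p on that array. Intensities were background-corrected with limma's nec function (normexp, robust, offset 16) and quantile normalised in log2 over 24 arrays. A probe was kept where this p lay under 0.01 on 3 or more arrays (13298 probes), and the brightest probe stood for each of 10048 genes. Only the 30113 probes with 1 gene symbol were used (8 had several, 17110 none).

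R 4.3.3 and limma 3.58.1 fitted each effect on its own 6 arrays, and differences of effects or of lines on 12. An earlier analysis had taken 1 spread over all arrays; this is an alternative here. Where 1 group was in the background, a fold is a bound against the lowest detected signal on its arrays. Replicate numbers did not pair arrays: same-numbered deviations correlated at -0.07 to 0.23. The small number of arrays, 3 a group, limits the precision. The fit was also run on simulated data in which few genes changed and all genes of a group shared a common spread. These settings differ from the broad response here, so that run does not show how reliable the calls are.

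The genes and lists were chosen with earlier results of these data known. The genes given in most detail are, per comparison, up to 4 called in each direction with the largest changes and no overlap, and those called in opposite directions; all other tested genes of the list are given briefly. Alternatives were no background correction, an offset of 50, median scaling, stricter and no filters, the mean of probes, a shared spread, the deposited log2 values, a replicate block and leaving out replicates. RefSeq tables (GRCh38.p14) gave promoter windows and neighbouring genes. Plots used matplotlib 3.10.9 under Python 3.11.15.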

Additional observations from a re-analysis of the deposited data

Results flagged for a closer look

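The trabectedin effect differed between U2932 and OCI-Ly7, or between 8 h and 24 h, by the test of the difference itself for the genes below. All values are differences of log2 changes with SE, with limma adjusted p over 10048 genes. They are U2932 minus OCI-Ly7 for the lines and 24 h minus 8 h for the times.

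At 8 h the lines differed by -1.34 ± 0.21 for XRCC3 (adjusted p = 0.000187), -0.85 ± 0.12 for NBN (9.79e-05), -0.75 ± 0.21 for RAD54B (0.00947) and -0.55 ± 0.14 for FAN1 (0.00614), which was in the background on every OCI-Ly7 array. FANCI differed by 0.57 ± 0.15 (0.00684), RAD54L by 0.57 ± 0.16 (0.0119), TOP3A by 0.71 ± 0.17 (0.00441) and FANCE by 1.18 ± 0.2 (0.000288). Under median scaling the difference was 0.11 for FANCI and 0.27 for TOP3A (adjusted p = 0.692 and 0.344), and without replicate 1 the calls of RAD54B, FANCI and RAD54L were lost (0.105, 0.0737 and 0.18).

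At 24 h the lines differed by -3.85 ± 0.38 for SLX4 (adjusted p = 2.67e-06), -2.4 ± 0.23 for MRE11 (2.43e-06), -2.31 ± 0.23 for FANCL (2.86e-06), -2.15 ± 0.21 for RAD51AP1 (2.83e-06) and 0.69 ± 0.2 for FANCF (0.00972). The SLX4 probe and the MRE11 probe used were in the background in treated U2932, and FANCF in both treated groups. The FANCF call was lost under 4 processing alternatives (adjusted p from 0.0505 to 0.659) and without replicate 1 or 2. The MRE11 difference was -0.48 (adjusted p = 0.14) by the probe that was detected on every array compared.

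Between the times in U2932, the effect differed by -1.89 ± 0.19 for NBN (adjusted p = 4.87e-06), -1.56 ± 0.16 for SLX4 (5.73e-06), -1.49 ± 0.24 for MRE11 (0.000248) and -1.44 ± 0.16 for FANCL (1.59e-05). The first 3 rest on probes that were in the background on the treated arrays at 24 h. Toward higher values it differed by 0.53 ± 0.12 for XRCC3 (0.00282), 0.56 ± 0.09 for TOP3A (0.000249), 0.73 ± 0.1 for FANCE (7.66e-05) and 0.8 ± 0.11 for MUS81 (8.64e-05). Under median scaling TOP3A gave 0.27 and MUS81 0.30 (adjusted p = 0.126 and 0.067), and with a shared spread XRCC3 lost its call (0.165).

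Between the times in OCI-Ly7, where the treated 24 h arrays had a chip of their own, the effect differed by -1.58 ± 0.38 for XRCC3 (adjusted p = 0.00721), -0.82 ± 0.23 for NBN (0.0154) and -0.74 ± 0.23 for FANCF (0.0258). It differed by 1.27 ± 0.31 for FANCG (0.0073), 1.41 ± 0.32 for RAD51AP1 (0.00501), 1.77 ± 0.29 for FANCE (0.000967) and 2.07 ± 0.4 for SLX4 (0.00208). Under median scaling these last 4 were 0.55, 0.74, 0.98 and 1.24 and were not called, nor was FANCF at -0.76 (adjusted p from 0.0917 to 0.408). With the mean of its probes the NBN difference was -0.05 (adjusted p = 0.891).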

How the results depend on the processing

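Under median scaling 2, 4, 1 and 0 of the genes were called higher in U2932 at 8 h, U2932 at 24 h, OCI-Ly7 at 8 h and OCI-Ly7 at 24 h, and 13 lower in the last. It called 2 genes for the time difference in OCI-Ly7, and 6 and 0 for DMSO 24 h against 8 h in U2932 and OCI-Ly7. Over all genes it called 2239, 2364 and 375 higher in U2932 at 8 h and 24 h and in OCI-Ly7 at 24 h, and 4008 lower in the last, where quantile normalisation called 3741, 3821, 2245 and 2399. It turned RAD54L (-0.0977, adjusted p = 0.339) and FANCE (-0.135, 0.246) in U2932 at 8 h, MUS81 in U2932 at 24 h (-0.732, 8.85e-06), FANCB in OCI-Ly7 at 24 h (-0.138, 0.754) and the 8 h line difference of RAD54L (-0.0164, 0.953). The mean of all probes turned FANCB in OCI-Ly7 at 8 h (-0.275, 0.0918) and 24 h (-0.236, 0.21).

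With probes detected on every array compared, which leaves fewer genes, 7 of 18 were lower in U2932 at 24 h, and 7 higher and 4 lower of 25 in OCI-Ly7 at 24 h. The line difference at 24 h was then called for 5 of 18 and the U2932 time difference for 12 of 18. Over all genes this filter gave 2457 of 6926 and 2259 of 5992 lower in U2932. A spread shared over all 24 arrays gave 12 higher in OCI-Ly7 at 24 h, and 0 and 7 genes for the DMSO times in U2932 and OCI-Ly7. The 2 OCI-Ly7 genes of that comparison were 0 with no background correction, an offset of 50 or no filter; the cause of these moves was not tested.

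Leaving out replicates, the counts higher and lower ranged over 8 to 8 and 16 to 18 in U2932 at 8 h, 10 to 10 and 16 to 18 at 24 h, 2 to 5 and 15 to 17 in OCI-Ly7 at 8 h, and 1 to 9 and 2 to 7 at 24 h. The line differences ranged over 6 to 8 at 8 h and 13 to 16 at 24 h, the time differences over 13 to 17 in U2932 and 3 to 10 in OCI-Ly7, the DMSO times over 4 to 7 and 0 to 4, and the lines in DMSO over 17 to 22. Without the OCI-Ly7 DMSO array of replicate 3 at 24 h, an alternative chosen after seeing the data, no count moved over 1.5 times.

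A replicate block, with the shared number in the fit, moved no count over 1.5 times: 8 and 18, 10 and 17, 4 and 17, and 6 and 7 genes were higher and lower in the order above. The deposited log2 values likewise moved no count over 1.5 times. A fit with the chip as a block was not run, because the chip did not vary within the other effects and matched treatment in OCI-Ly7 at 24 h. Signal over background limits the values of RAD51B, RAD51D, FANCC, FANCF and FAN1, and of the probes used for BRCA1, NBN, SLX4, MRE11 and RAD54B in U2932 at 24 h. It also limits the dimmer FANCB probe with trabectedin. In U2932 at 24 h it limits the further BRCA1 probe, the dimmer NBN probe and the dimmest MRE11 probe as well.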
